A study of Caenorhabditis elegans with 8 samples.

Results

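The genes described here encode the insulin-like peptides of *Caenorhabditis elegans*, the ins genes and daf-28. A gene was taken if its symbol in the array's annotation was ins with a number or daf-28, and if a probe set was annotated to it alone. This gave 40 of 25478 measured genes, each with 1 probe set, and the rule uses the symbol alone and no measured value. RNA of whole worms came from 4 samples of the wild-type strain N2 and 4 of the strain mir-71(n4115), each hybridised to its own Affymetrix array. Both groups were bleach-synchronised, untreated, fed on *Escherichia coli* OP50 and collected on day 1 of adulthood. The mutants carry the n4115 allele of mir-71, a microRNA gene, and no source used here gives the extent of its lesion. Whether replicates were separate cultures is not stated, so the p-values speak for the spread among these samples, which may be technical.

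Insulin-like peptides are small secreted proteins that bind DAF-2, the worm homologue of the insulin and IGF receptors. Some activate the receptor (agonists) and others oppose it (antagonists). An active receptor signals through the kinases AGE-1, PDK-1 and AKT and keeps the transcription factor DAF-16 out of the nucleus, and this pathway controls dauer entry, lifespan and germline growth. Many of the peptides are made in neurons and some in the intestine, as precursors that are cut by proprotein convertases and released from dense-core vesicles.

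In mir-71(n4115) worms ins-31 fell 4.75-fold and ins-10 fell 1.98-fold, and 0 of the 40 genes rose, where 0.616% of all genes did. These calls are from limma with Benjamini-Hochberg adjustment over 26192 probe sets, at an adjusted p of 0.05. At an unadjusted p under 0.05, 9 genes were lower and 3 were higher in the mutants, where 12.9% and 13.2% of all genes were. The 2 fallen genes are 5.0% of the family, and 1.22% of all genes fell. Over all genes 1.84% were called in either direction. The daf-28, ins-6 and ins-1 genes, which encode peptides with known roles at DAF-2, were among the 38 that were not called.

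Values are log2 signals, and a log2 difference is the mutant mean minus the wild-type mean. Signals of different probe sets are not compared as levels. Wild-type means ran from 2.44 for ins-20 to 9.23 for ins-34, array medians lay between 5.20 and 5.30, and 16 of the 40 genes, the same share as of all, were among the dimmest 40% of probe sets. In whole worms, fewer cells of a type and less RNA per cell cannot be told apart.

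Wild-type replicate 4 stood apart from the other wild-type arrays. Its correlation across probe sets was 0.961 to 0.976 with wild-type replicates 1 to 3 and 0.986 to 0.993 with the mutants. At the mir-71 locus it read with its label: the noncoding gene F16A11.5 was at 6.01 in it, at 5.999 to 6.24 in wild-type replicates 1 to 3 and at 8.75 to 8.87 in the mutants. It was kept in the wild type, and the results that rest on it are given with and without it. Without it 36.9% of all genes were called, and its signal was closer to the mutant mean than to the mean of the other wild-type arrays for 87.9% of those.

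The ins-31 gene was the member that changed most. In wild-type replicates 1 to 4 it read 6.30, 6.64, 5.66 and 6.21. In mutant replicates 1 to 4 it read 4.21, 4.21, 3.80 and 3.59. Every mutant array lay below every wild-type array, and wild-type replicate 4 lay within the range of the other wild-type arrays. The log2 difference was -2.25 ± 0.23 (SE, n = 4 per group; limma, adjusted p = 0.00517), with a 95% interval from -2.76 to -1.74. It passed the threshold under all 17 alternatives in which it was refitted, with log2 differences from -2.43 to -1.90. Without wild-type replicate 4 it was -2.24 (limma, adjusted p = 3.01e-04).

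Some markers of sperm fell in the same arrays. Of 12 sperm markers 6 fell and 0 rose, where 1.22% of all genes fell. By log2 difference 10 of them were lower and 2 were higher, spe-41 (0.12) and spe-9 (0.04). Among the fallen were msp-38 and msp-78, which encode major sperm proteins, and the list had been chosen with its earlier results known. The mean signal of the 12 markers was 5.74 to 5.87 in the 4 wild-type arrays, 5.78 in replicate 4, and 4.65 to 5.11 in the mutants. By gene, replicate 4 was nearer to the mutants for 5 of the 12, beside 72.2% of all genes. The list's dimmest member, ssp-16, was at 2.05 in the wild type. The part of sperm content in the fall of ins-31 was not tested.

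The ins-10 gene fell by less. It read 5.83, 5.21, 5.50 and 4.86 in wild-type replicates 1 to 4. It read 4.45, 4.38, 4.33 and 4.29 in mutant replicates 1 to 4. The groups did not overlap, and wild-type replicate 4 was the wild-type array nearest to the mutants. The log2 difference was -0.99 ± 0.19 (SE, n = 4 per group; limma, adjusted p = 0.0406). This call did not survive the loss of an array other than wild-type replicate 4. Leaving out any 1 of the other 7 arrays gave adjusted p from 0.0973 to 0.118 in limma, with log2 differences from -1.03 to -0.83. With wild-type replicate 4 left out it was -1.15 (limma, adjusted p = 6.37e-04). With trended and robust eBayes the adjusted p with all arrays was 0.0530. The ins-10 gene passed the threshold in 8 of the 17 alternatives and did not in 9.

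**Figure D1:**
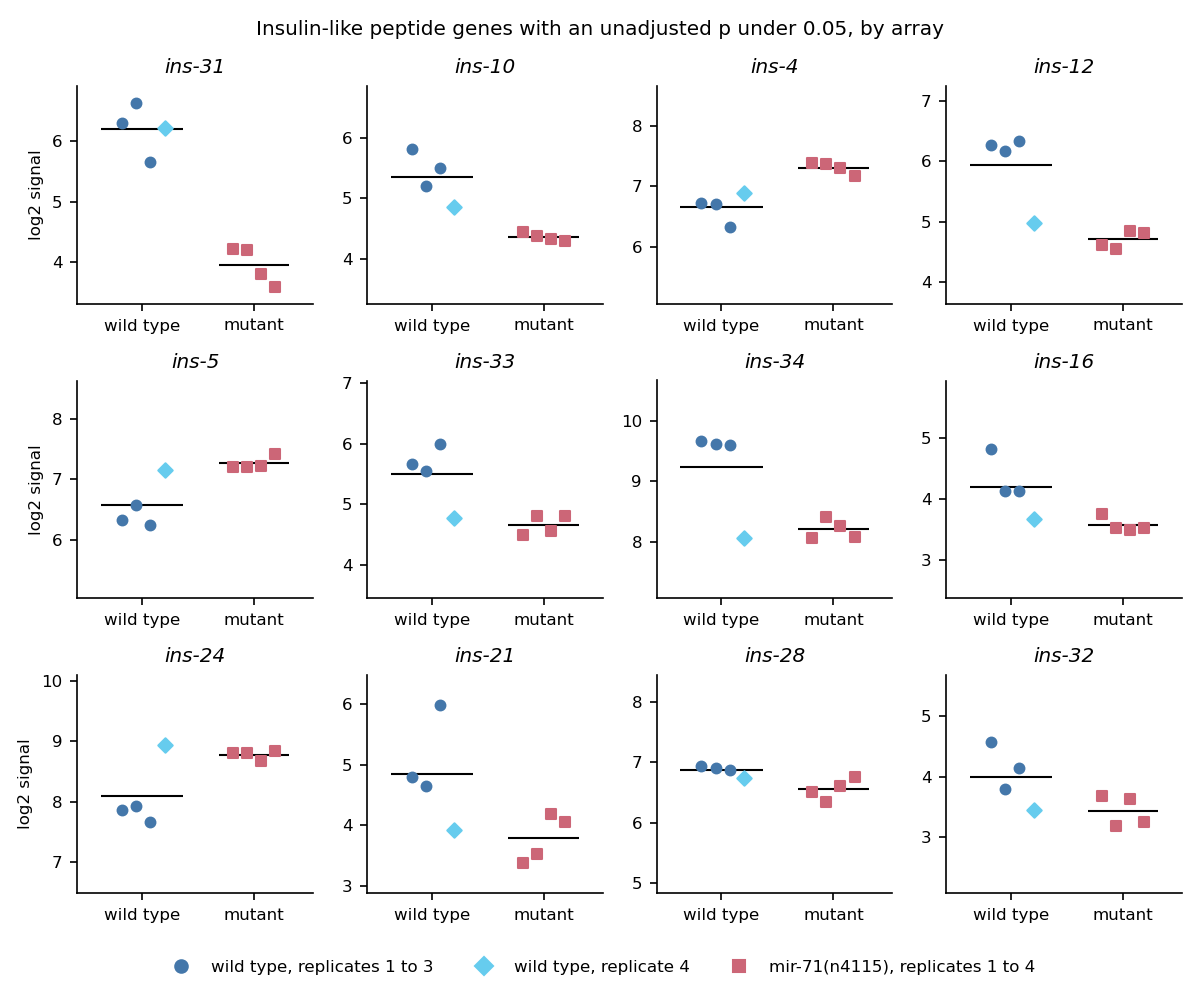
Log2 signal on each array (vertical axis, 1 panel per gene, each spanning the same range) for the 12 insulin-like peptide genes with an unadjusted p under 0.05; points are arrays and lines are group means. For ins-31 wild-type replicate 4 (diamond, 6.21) lies with the wild type, while for ins-34 (8.06) and ins-24 (8.93) it lies with the mutants.

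The arrays of ins-4, ins-5 and ins-12 also separated by group, and these genes did not pass the test. The ins-4 gene encodes a DAF-2 agonist that acts against dauer entry. It read 6.73, 6.70, 6.33 and 6.88 in the wild type and 7.38, 7.36, 7.31 and 7.16 in the mutants. Its log2 difference was 0.64 ± 0.14 (SE, n = 4 per group; limma, adjusted p = 0.0536). It passed with array medians subtracted (limma, adjusted p = 0.0433), with quantile normalisation (adjusted p = 0.0467) and without the dimmest probe sets (adjusted p = 0.0491). With wild-type replicate 4 left out it was 0.72 (limma, adjusted p = 0.00313). It did not pass in 11 of the 17 alternatives. Leaving out any 1 of the other 7 arrays gave adjusted p from 0.093 to 0.15 in limma. Trended and robust eBayes gave an adjusted p of 0.0837 and the replicate block 0.0746.

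For ins-5, the protein-coding gene next to ins-4, the wild-type arrays read 6.32, 6.58, 6.24 and 7.14. The mutants read 7.21, 7.21, 7.22 and 7.42, so that wild-type replicate 4 was just below them. The log2 difference was 0.69 ± 0.20 (SE; limma, adjusted p = 0.0943). For ins-12 the wild-type arrays read 6.27, 6.18, 6.34 and 4.98 and the mutants 4.61, 4.55, 4.85 and 4.82. Here too replicate 4 lay close to the mutants, and the log2 difference was -1.23 ± 0.28 (SE; limma, adjusted p = 0.0628). In all, the arrays of 5 members separated by group, which is 12.5% of the family against 11% of all genes.

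**Figure D2:**
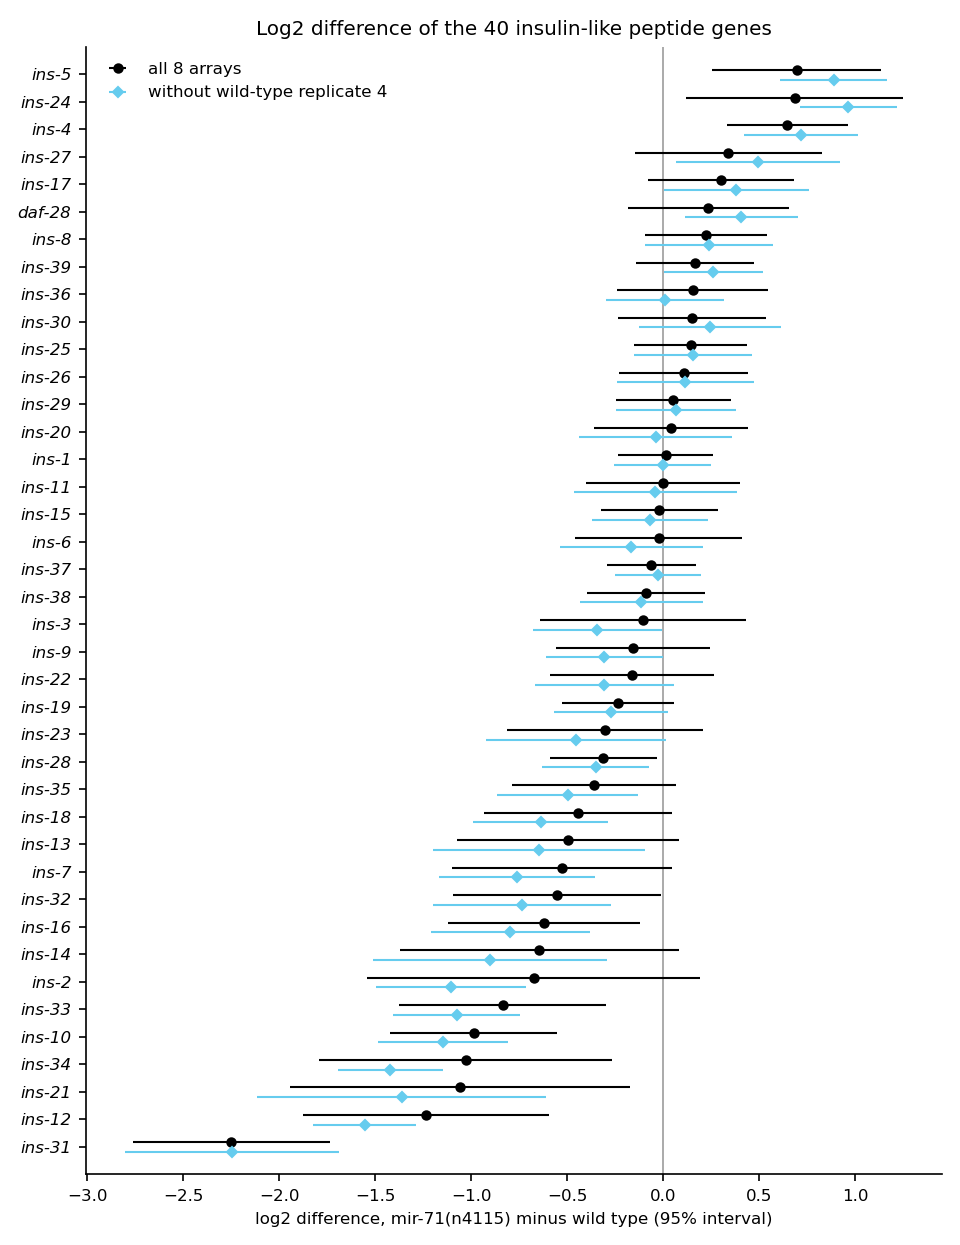
Log2 difference, mir-71(n4115) minus wild type, of each of the 40 genes (horizontal axis) with its 95% interval from limma; circles use all 8 arrays and diamonds leave out wild-type replicate 4. The interval of ins-31 runs from -2.76 to -1.74 and hardly moves without that array, whereas that of ins-34 narrows.

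The other 7 genes with an unadjusted p under 0.05 had overlapping groups. The ins-34 gene read 9.67, 9.61 and 9.59 in wild-type replicates 1 to 3 and 8.06 in replicate 4. The mutants read 8.06, 8.41, 8.27 and 8.07. Replicate 4 was thus level with the lowest mutant, and the log2 difference was -1.03 ± 0.34 (SE; limma, adjusted p = 0.118). The ins-24 gene showed the reverse order, with 7.86, 7.94 and 7.66 in wild-type replicates 1 to 3, 8.93 in replicate 4 and 8.81, 8.80, 8.68 and 8.84 in the mutants. Replicate 4 was there the highest of all 8 arrays, and the log2 difference was 0.68 ± 0.25 (SE; limma, adjusted p = 0.139).

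The ins-33 gene, a target of the heterochronic factor LIN-14 that promotes larval germline proliferation, read 5.66, 5.55, 5.999 and 4.77 in the wild type. It read 4.48, 4.80, 4.56 and 4.80 in the mutants, and replicate 4 lay among them. The log2 difference was -0.84 ± 0.24 (SE; limma, adjusted p = 0.0977). The ins-21 gene read 4.80, 4.66, 5.99 and 3.92 in the wild type and 3.38, 3.53, 4.19 and 4.05 in the mutants, with a log2 difference of -1.06. Wild-type replicate 3 was its highest array and replicate 4 lay within the mutant range. The ins-16 gene read 4.83, 4.13, 4.13 and 3.67 in the wild type and 3.75, 3.52, 3.49 and 3.52 in the mutants, with a log2 difference of -0.62. The ins-32 gene read 4.57, 3.80, 4.14 and 3.44 against 3.68, 3.19, 3.63 and 3.25, with a log2 difference of -0.55. For ins-16 and ins-32 replicate 4 was the lowest wild-type array and fell within the mutant range. The ins-28 gene read 6.94, 6.91, 6.87 and 6.75 against 6.50, 6.34, 6.61 and 6.77, with a log2 difference of -0.31. Adjusted p for these 4 genes was 0.134 to 0.184 (limma). Together, 12 of the 40 members had an unadjusted p under 0.05, beside 26.1% of all genes.

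Among the agonists, daf-28 encodes the sensory neuron peptide that holds worms out of the dauer stage. It read 8.38, 8.01, 8.43 and 8.96 in the wild type and 8.69, 8.78, 8.62 and 8.62 in the mutants. Replicate 4 was the highest array and the groups overlapped. The log2 difference was 0.23, with a 95% interval from -0.18 to 0.65 (limma, adjusted p = 0.428). Without replicate 4 it was 0.41 (limma, adjusted p = 0.0370).

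The ins-6 gene encodes a DAF-2 agonist that promotes exit from dauer. It read 6.46, 6.87, 6.41 and 6.01 in the wild type and 6.30, 6.32, 6.75 and 6.30 in the mutants. The log2 difference was -0.02, with an interval from -0.46 to 0.41 (limma, adjusted p = 0.944), and its sign turned with quantile normalisation (0.01) and with the gene length trend removed (0.23). The ins-7 gene encodes an intestinal agonist that DAF-16 represses. It read 7.49, 6.97, 7.60 and 6.41 in the wild type and 6.65, 6.43, 6.86 and 6.42 in the mutants. Replicate 4 was the lowest of all 8 arrays, and the log2 difference was -0.53, with an interval from -1.10 to 0.04 (limma, adjusted p = 0.213). Leaving that array out gave -0.76 (limma, adjusted p = 0.01002). The ins-3 gene, which with ins-33 promotes germline proliferation, read 6.18, 5.997, 6.07 and 5.14 against 5.81, 5.38, 5.95 and 5.81. Its lowest array was again replicate 4, and the log2 difference was -0.11 (interval from -0.64 to 0.43), which turned to 0.15 with the gene length trend removed.

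Among the antagonists, ins-1 encodes a peptide that acts in neurons in learning. It read 7.07, 6.85, 6.82 and 6.84 in the wild type and 6.80, 6.94, 6.90 and 6.99 in the mutants. The wild-type SD was 0.12 and the mutant SD 0.08 (n = 4 each), and the 95% interval of the log2 difference ran from -0.24 to 0.26 (limma, adjusted p = 0.952). The ins-18 gene read 7.14, 6.83, 7.19 and 6.26 against 6.51, 6.07, 6.49 and 6.58. Replicate 4 lay among the mutants, and the log2 difference was -0.44, with an interval from -0.93 to 0.05. Without replicate 4 it was -0.64 (limma, adjusted p = 0.0116). The ins-17 gene, whose product favours dauer entry, read 5.81, 6.07, 6.52 and 6.46 against 6.41, 6.44, 6.61 and 6.59, with a log2 difference of 0.30 and an interval from -0.08 to 0.68.

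The ins-11 gene, which acts from the gut in the aversion to pathogens, had a log2 difference of -9.5e-05 with an interval from -0.40 to 0.40. The groups overlapped for ins-35 (-0.36), ins-37 (-0.06) and ins-39 (0.17), with adjusted p from 0.247 to 0.716 (limma). The other genes not called with all arrays were ins-2, ins-8, ins-9, ins-13 to ins-15, ins-19, ins-20, ins-22, ins-23, ins-25 to ins-27, ins-29, ins-30, ins-36 and ins-38, which RefSeq lists as a pseudogene. Among all 40 genes the log2 difference was under 0.5 in either direction for 26, beside 19516 of all 25478 genes.

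Over the family 25 genes were lower and 15 were higher in the mutants. That is 62.5% lower, against 48.2% of all genes. The median log2 difference was -0.10, beside 0.02 for all genes, but it turned to 0.13 when the trend with gene length was taken out of each array. These genes are short, with a median gene length of 649 bp beside 2068.5 bp over 18800 measured protein-coding genes. The median standard error was 0.19 for the family and 0.17 for all genes.

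Without wild-type replicate 4, 13 of the 40 genes fell and 4 rose. The fallen share was 32.5% against 17.8% of all genes, and 4 of 40 compare with 19.1% of all genes that rose. With the gene length trend removed as well, 10 fell and 12 rose. The share of all genes called in that fit is not given here, so these counts have no background beside them. The 17 called without that array were ins-31, ins-10, ins-12, ins-33, ins-34, ins-16, ins-21, ins-32, ins-7, ins-18, ins-14, ins-35 and ins-2, which fell, and ins-4, ins-5, ins-24 and daf-28, which rose. Replicate 4 lay closer to the mutant mean than to the mean of the other wild-type arrays for 15 of those 17, the exceptions being ins-31 and ins-4. That is 88.2%, beside 87.9% of all genes called in the same way. Over all 40 genes it was nearer to the mutants for 32, which is 80.0% against 72.2% of all genes.

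Measured from wild-type replicates 1 to 3, the family's median lay at -0.26 in replicate 4 and at -0.22 in the mutants. Measured from replicate 4, the mutants' median was 0.06. For ins-2 the distance was largest, with 7.65, 7.19 and 7.48 in wild-type replicates 1 to 3, 5.72 in replicate 4 and 6.54, 6.01, 6.55 and 6.23 in the mutants. Replicate 4 thus lay below every mutant array there, and the log2 difference was -0.68 with all arrays (limma, adjusted p = 0.277) and -1.11 without replicate 4 (adjusted p = 0.00143).

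**Figure D3:**
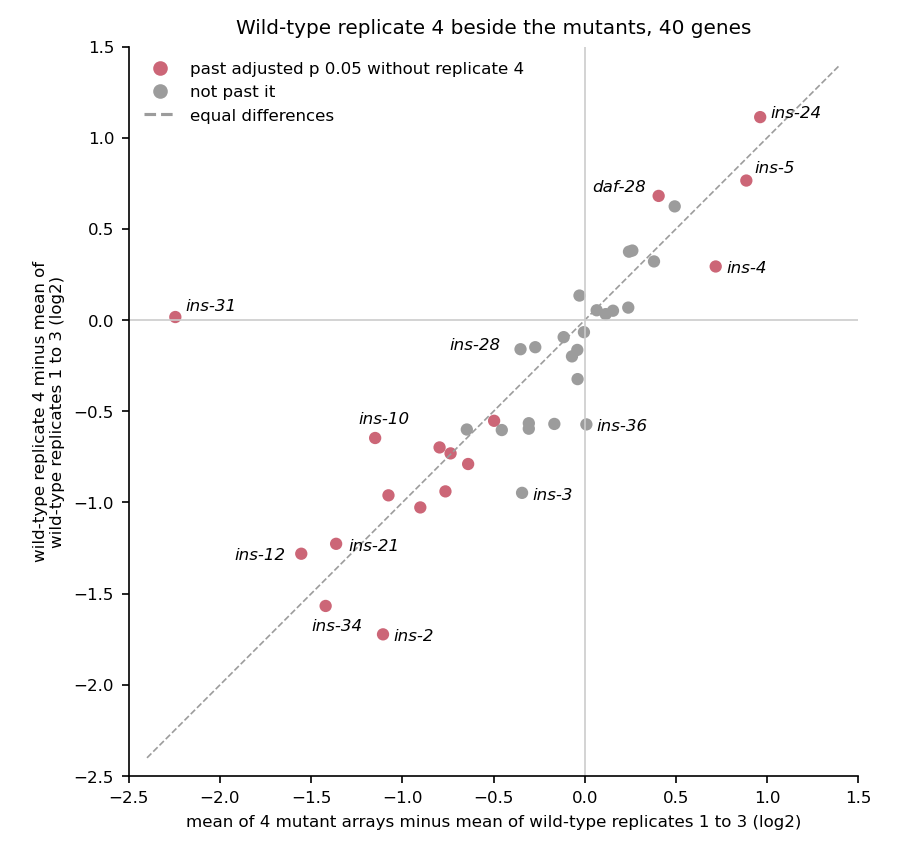
For each of the 40 genes, wild-type replicate 4 minus the mean of wild-type replicates 1 to 3 (vertical, log2) against the mean of the 4 mutants minus the same mean (horizontal, log2); both axes share that mean, so a trend along the dashed line of equal differences carries no test. Most genes lie near the line, and ins-31 lies at 0.02 on the vertical and -2.24 on the horizontal axis.

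Many of these genes lie next to each other. In the RefSeq order of WBcel235, 25 of the 40 fall into 7 groups in which at most 5 other protein-coding genes separate neighbours. No source used here names the build of the array, so only gene order was used. On chromosome II, ins-2, ins-3, ins-4, ins-5 and ins-6 follow each other in the order of protein-coding genes. After 1 other such gene ins-20 comes next. Within this run the log2 differences were -0.68, -0.11, 0.64, 0.69, -0.02 and 0.04. The agonist genes ins-4 and ins-6 of 1 run thus had values of 0.64 and -0.02. Without wild-type replicate 4, ins-2 fell in limma while ins-4 and ins-5 rose. The difference between these neighbours was not tested.

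The protein-coding gene that precedes ins-31 on chromosome II is ins-19, with no other between them. It was dim, at 3.02, 2.84, 2.59 and 2.67 in the wild type and 2.58, 2.47, 2.46 and 2.67 in the mutants. Its log2 difference was -0.23 (limma, adjusted p = 0.265). On the other side chil-24, a chitinase-like gene, was at -0.54 ± 0.15 (SE; limma, adjusted p = 0.0885). Of the 4 protein-coding genes on each side of ins-31, 0 were called by limma with all arrays, where 1.84% of all genes were. Among these neighbours chil-24 and T10D4.7 had an unadjusted p under 0.05, as did 26.1% of all genes. Both chil-24 and T10D4.7 fell without wild-type replicate 4, as did 17.8% of all genes.

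The run on chromosome I holds ins-28, ins-29, ins-25, ins-27, ins-24, ins-30 and ins-26, with log2 differences of -0.31, 0.05, 0.14, 0.34, 0.68, 0.15 and 0.11. Only ins-24 of this run was called without wild-type replicate 4. In the run of ins-13, ins-12 and ins-11 on chromosome II the values were -0.50, -1.23 and -9.5e-05. On chromosome III ins-21, ins-22 and ins-23 had -1.06, -0.17 and -0.30. On chromosome II, ins-15 and ins-14 had -0.02 and -0.64, and on chromosome IV, ins-8 and ins-7 had 0.22 and -0.53.

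**Figure D4:**
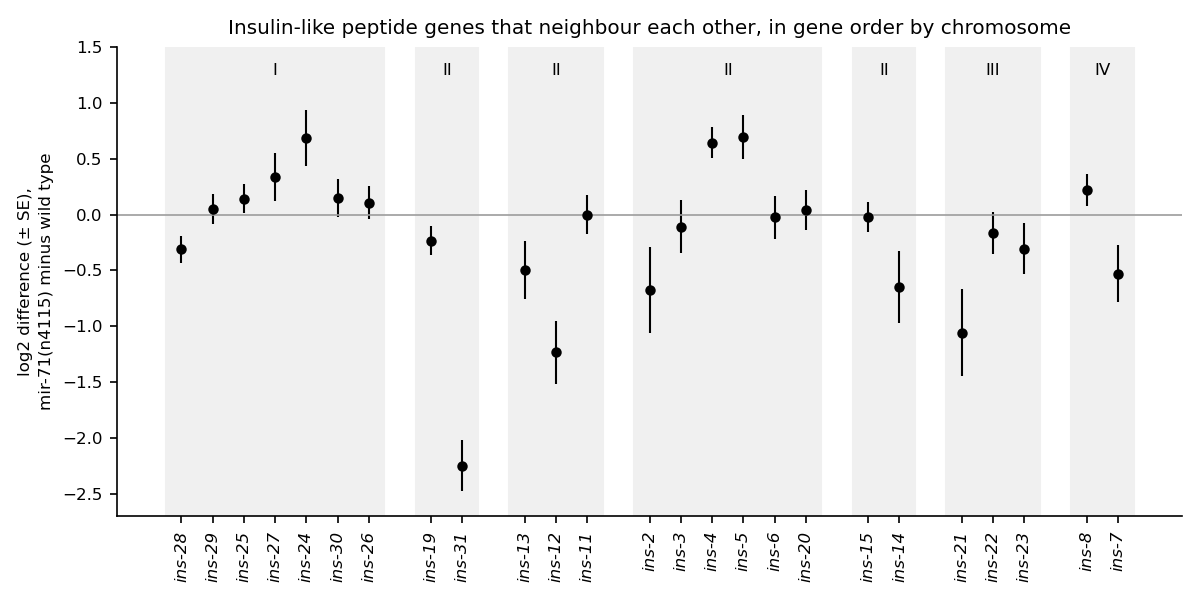
Log2 difference, mir-71(n4115) minus wild type, ± SE (vertical axis) of the 25 genes in 7 runs of neighbours, in gene order within each shaded run, with the chromosome above. In the run of ins-2 to ins-20 the values range from -0.68 to 0.69, and ins-31 at -2.25 stands beside ins-19 at -0.23.

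The genes that act with the peptides did not pass the test. Of 18 genes of the receptor and its signalling 0 rose and 0 fell in limma. At an unadjusted p under 0.05, 3 were higher, beside 13.2% of all genes. The receptor gene daf-2 read 9.41, 9.67, 9.56 and 10.22 in the wild type and 9.97, 10.19, 10.01 and 10.15 in the mutants. Its log2 difference was 0.36 ± 0.18 (SE; limma, adjusted p = 0.218). The gene of its output factor, daf-16, had 0.47 (adjusted p = 0.291). The lowest p were those of pdk-1, a kinase of the pathway, at 1.23 (adjusted p = 0.164), and pptr-1, a phosphatase subunit that acts on AKT-1, at 0.28 (adjusted p = 0.178). When wild-type replicate 4 was left out, 8 of the 18 rose and 0 fell, where 19.1% and 17.8% of all genes did. Replicate 4 was nearer to the mutants for all 8, as for 87.9% of all genes so called.

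Of 16 genes of peptide processing and release 0 rose and 0 fell in limma, and 7 were higher and 1 lower at an unadjusted p under 0.05, beside 13.2% and 12.9% of all genes. The proprotein convertase gene egl-3 read 9.31, 9.69, 9.08 and 10.89 in the wild type and 10.34, 10.82, 10.23 and 10.65 in the mutants. Replicate 4 was the highest of all arrays, and the log2 difference was 0.76 (limma, adjusted p = 0.206). The lowest p was that of hid-1, a dense-core vesicle gene, at 0.66 (adjusted p = 0.126), followed by zmp-2 at 0.72 (adjusted p = 0.127). For unc-31, which encodes the CAPS protein of dense-core vesicle release, the difference was -0.01, with an interval from -0.27 to 0.24. The asna-1 gene, which promotes insulin secretion, was the 1 lower gene, at -0.92 (adjusted p = 0.169). When wild-type replicate 4 was left out, 10 of the 16 rose, beside 19.1% of all genes, and asna-1 fell, and replicate 4 was nearer to the mutants for all 11.

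Markers of tissues that make these peptides were set beside the family. Of 10 neuron markers and 10 intestine markers 0 were called in limma. At an unadjusted p under 0.05 there were 2 and 4, beside 26.1% of all genes. The 2 neuron markers were higher. Of the 4 intestine markers elt-2 (0.62) and ifb-2 (0.61) were higher, and ges-1 (-1.05) and cpr-1 (-0.41) were lower. The mean of the neuron markers was 8.12 to 8.25 in wild-type replicates 1 to 3, 8.38 in replicate 4 and 8.38 to 8.53 in the mutants. The mean of the intestine markers was 10.19 to 10.22, 10.08 and 10.03 to 10.07 in the same order. The mean of the 40 insulin-like peptide genes was 5.29 to 5.46 in wild-type replicates 1 to 3, 5.07 in replicate 4 and 5.04 to 5.15 in the mutants. Of 10 oocyte and early embryo markers and 9 of 10 epidermis markers measured, 0 were called. Beside 26.1% of all genes, 0 and 3 of these markers had an unadjusted p under 0.05. Their means were higher in replicate 4, at 11.72 and 8.76, than in wild-type replicates 1 to 3, at most 11.38 and 8.20. The mutant means, at 11.45 to 11.70 and 8.56 to 8.78, were also above those 3 arrays. The lowest marker means in the wild type were 6.61 among neuron, 8.41 among intestine, 10.13 among oocyte and 3.85 among epidermis markers. The part of these tissues in the family's values was not tested.

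**Figure D5:**
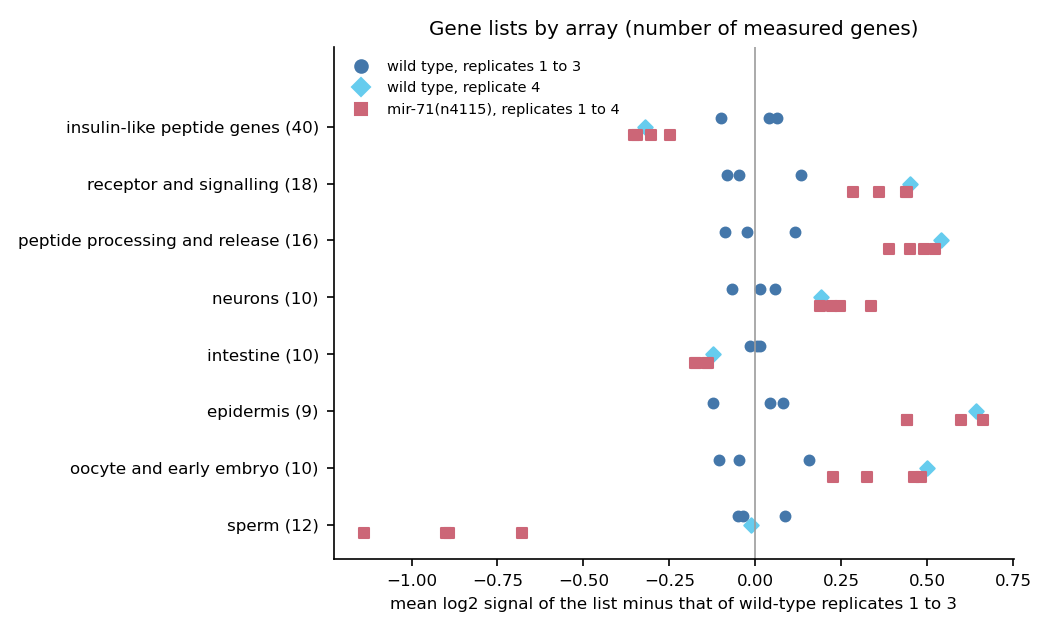
Mean log2 signal of each gene list on each array minus the mean of wild-type replicates 1 to 3 (horizontal axis), with the number of measured genes in brackets; each point is an array. Replicate 4 (diamond) lies at or near the mutants for every list shown except sperm, where it read 5.78 and the mutants at most 5.11.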

How the data were processed

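The authors deposited log2 signals for 29317 probe sets on 8 Affymetrix arrays. Per the submitters' processing notes the software was Partek 6.6 with RMA, which subtracts background, brings arrays to 1 distribution and summarises probes, so a shift of all genes would not show. The order and settings of these steps, and the build, are not stated. The log2 scale was read from the range of the values and the use of RMA. No scanner files were analysed, so whether a dim probe set was above background is unknown, and the number of arrays limits the precision.

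Gene names came from the platform annotation deposited at GEO, updated through Entrez identifiers to RefSeq WBcel235. All 40 members matched. Of several probe sets of a gene, the brightest over all arrays was used. Groups came from the sample labels and were compared with limma 3.58.1 (lmFit, then eBayes; 2-sided; no covariate) in R 4.3.3, after the script was tested on simulated data. Benjamini-Hochberg adjustment ran over all 26192 annotated probe sets, and 3125 unnamed ones were left out.

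All members may be named, with values per array for those with an unadjusted p under 0.05 or a known role at DAF-2. For ins-11, ins-35, ins-37 and ins-39 only differences are given. The per-array values of ins-2 and ins-19 and the neighbours of ins-31 were added after values were seen. From the signalling and processing lists the rule took daf-2, daf-16, egl-3, unc-31 and the 2 lowest p of each, and asna-1 was added after its value was seen. The members and lists were chosen with earlier results of these data known. Alternatives were quantile normalisation, array medians subtracted, a replicate block, no dim probe sets, trended and robust eBayes, array weights, removal of each array's lowess trend with gene length, a stricter threshold, gene medians and each array left out. No sequences are printed, since the sources used here held none for these genes.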

Additional observations from a re-analysis of the deposited data

Results flagged for a closer look

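Within a group of 4 arrays, an array was picked out if its gap to the nearest other, over the group's range, exceeded Dixon's 95% critical value, which chance gives in about 1 of 20 groups. Of 80 groups (40 genes in 2 genotypes) 10 held such an array. The share of all genes picked out by this rule is not given here, so this count has no background beside it. With pathway genes and the means of gene lists 112 groups were tested, and those 10 were the only ones picked out. Wild-type replicate 4 was the low array of ins-12 (4.98) and of ins-34 (8.06), where it stood at the level of the mutants. In the wild type, replicate 1 was the high array of ins-1 (7.07) and of ins-11 (4.48), and replicate 3 that of ins-15 (3.13). In the mutants, replicate 4 was the high array of ins-5 (7.42) and of ins-11 (4.39), replicate 1 that of ins-16 (3.75), and replicate 3 that of ins-23 (6.29) and of ins-6 (6.75).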

How the results depend on the processing

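The fall of ins-31 passed under all 17 alternatives that refitted it. The count of fallen members, 2 as reported, was 1 at an adjusted p of 0.01, with trended and robust eBayes and with the replicate block, 3 with the gene length trend removed, 14 with array weights and 10 when wild-type replicate 4 was also dropped from that length-corrected fit. The count of risen members, 0 as reported, was 1 with array medians subtracted, quantile normalisation or the dimmest probe sets left out, where ins-4 passed, 5 with array weights and 12 in the length-corrected fit of the other 7 arrays. In those last 2 settings 10 and 4 signalling genes rose and 0 and 3 fell, while 10 and 8 processing genes rose and 1 and 4 fell. The shares of all genes called in those 2 settings are not given here, so their counts have no background beside them. With each array left out in turn, 1 to 13 members fell and 0 to 4 rose, 0 to 8 signalling genes rose, and 0 to 10 processing genes rose and 0 to 1 fell. The upper counts are all from leaving out wild-type replicate 4. Without any other array 1 member fell and 0 rose. The cause was not tested.

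The median log2 difference of the family ranged from -0.22 to -0.07 with each array left out and was -0.25 with array weights, which gave replicate 4 a weight of 0.170. It turned to 0.13 after length correction and to 0.03 after that correction without replicate 4, over the 39 protein-coding members. Sign changes touched genes that were not called. They were ins-11 with array medians subtracted (0.0082), ins-20 (-0.070) and ins-1 (-0.025) with array weights, and ins-15 (0.0045) and ins-6 (0.012) with quantile normalisation. After length correction the values were 0.092 for ins-9, 0.055 for ins-22, 0.16 for ins-37, 0.15 for ins-3, 0.20 for ins-15, 0.23 for ins-6 and 0.23 for ins-11. Without replicate 4 they were then 0.027 for ins-19, 0.035 for ins-9, 0.27 for ins-37, 0.011 for ins-3, 0.23 for ins-15, 0.18 for ins-6 and 0.27 for ins-11. With each array left out, ins-38 ranged from -0.16 to 0.014, ins-3 from -0.34 to 0.012, ins-29 from -0.045 to 0.13, ins-20 from -0.096 to 0.14, ins-15 from -0.070 to 0.095, ins-6 from -0.17 to 0.12, ins-1 from -0.016 to 0.069 and ins-11 from -0.11 to 0.14.

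The groups share replicate numbers. Same-numbered arrays' deviations from their group means correlated at 0.19, -0.11, 0.37 and 0.27, where the wild-type mean included replicate 4. By this measure 1 of 4 pairs did not deviate together. Of the wild-type arrays, only replicate 3 correlated best with the mutant array of its own number. The numbers were not taken as pairs. With the replicate number as a block ins-31 was the 1 member past the threshold, and ins-10 had an adjusted p of 0.0501 in limma. Each member had 1 probe set, so gene medians gave the same values. Gene length stood in for the planned transcript length, which was not used here, and 24 members remained once the dimmest 40% of probe sets were left out.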
